A study of Mus musculus with 44 samples.

Results

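Transcription factors of the MYC and MAX network were followed by RNA-seq in bone marrow-derived macrophages (BMDMs) of mice, cells grown from marrow with M-CSF-containing L929 medium. The 9 genes Myc, Mycl, Max, Mxd1, Mxi1, Mnt, Mga, Mlx and Mlxip were taken by symbol from 24940 genes listed in each of 4 raw count tables, and all 9 passed the filter on low counts in every table. They were chosen by network membership with their depth-scaled counts (CPM) in these 44 libraries already in view, so the tests that follow, fitted over all genes of a table, describe the members and are not independent support for having picked them. The fall of Mycl in NCoR-knockout cells given RANKL was among the values known at that choice, and that contrast is given as a description with no test.

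The libraries form 22 groups of 2, all labelled as BMDMs, and by the study's methods the mice were C57BL/6 aged 8 to 12 weeks and BMDM cultures were serum-starved for 12 h before a ligand was added. The column names of the 4 RANKL libraries read osteoclast in place of BMDM. The methods also describe an osteoclast culture in alpha MEM, without L929 medium or a starvation step, and which culture these 4 libraries came from is not given in the sources used here. The first table holds 24 libraries from NCoR flox/flox mice (WT) and NCoR flox/flox, LysMCre mice (NKO), in which Cre is made from the myeloid Lyz2 locus, so that WT cells carry the floxed allele too. Cells received vehicle (Veh), the TLR4 agonist Kdo2-lipid A (KLA), the TLR3 agonist PolyIC, interferon beta (IFNb) or interleukin 4 (IL4) for 6 h, or RANKL, the osteoclast-inducing ligand, for 12 h. The second table compares Veh, KLA and KLA with the HDAC3 inhibitor RGFP966 in wild type cells. A further table has Pgc1b flox/flox and Pgc1b flox/flox, LysMCre cells with Veh or KLA, and the last has wild type cells with DMSO, DMSO and KLA, or KLA and the TBK1 inhibitor GSK8612 (TBK1i), each at 6 h. By the study's methods both inhibitors were added when starvation began, 12 h before KLA. No group received an inhibitor without KLA. An inhibitor's effect on the resting level therefore cannot be told apart from one on the KLA response. The labels do not say whether the 2 libraries of a group came from separate mice, so p-values measure the spread between libraries, which may be technical.

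MYC proteins bind DNA only as a pair with MAX, at E-box sequences with the letters CACGTG, and promote genes of ribosome making, nucleotide synthesis and cell growth. MXD1, MXI1, MNT and MGA compete for MAX and act mostly as repressors, the MXD proteins and MNT by bringing in SIN3 and histone deacetylases and MGA as part of a Polycomb-type complex. MLX and MLXIP, also called MondoA, form a parallel branch that responds to sugar phosphates and drives Txnip and Arrdc4. In myeloid cells, Mycl is known from dendritic cells, where it takes over from Myc, and MXD1 is known to rise as cells stop dividing and differentiate.

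Totals ran from 8.32 to 16.8 M counts per library with a median of 12.2 M. Replicates differed by more than sampling noise in every group. Ncor1 stood at 133 to 215 CPM in 12 WT libraries and 49.4 to 64.9 in 12 NKO libraries. Ppargc1b, the gene of PGC1β, was not lower over the counted exons in the libraries labelled Pgc1b flox Cre (3.41 to 10.3 CPM) than in those labelled Pgc1b flox (2.88 to 7.80). The column names bear dates, without saying what was done on them. For the RANKL libraries of both genotypes the date lies 536 days before that of the vehicle libraries. For WT KLA it lies 115 days before, and for NKO KLA a further 1401 days earlier. The NKO KLA names also carry other initials and a polyA tag that the other names lack. The NKO KLA and all Pgc1b libraries, 10 in all, carried Y-linked counts and the other libraries next to none. Genotype, date, sex and whatever those name differences stand for therefore cannot be told apart in NKO KLA cells. The 7 macrophage markers summed to 9336 CPM or more in every library. The RANKL libraries alone held neutrophil markers at 637 to 1009.9 summed CPM, against 1.06 to 22.1 elsewhere, while their osteoclast markers (181 to 361) lay within the range of the other libraries (72.9 to 1951) and the osteoclast marker Calcr had 0 or 1 count in each. The upper end of that range came from NKO PolyIC libraries, and WT Veh libraries had 132 to 147. The RANKL libraries are called RANKL-treated cells here.

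Because MAX partners bind the E-box CACGTG, the start regions of the members were read for these 6 letters. RefSeq windows from 250 bases before to 50 bases after the start were at hand for 8 of the 9 members. The letters, which read alike on both strands, occurred in 3 of them, Max, Mnt and Mlx, and in 7.15% of all 32851 windows. Shown are 4 members that changed with KLA in all 4 tables, 2 with and 2 without a match. Mxi1, which also changed in all 4, has 3 windows and no match in any. The sequences below (RefSeq, GRCm38.p6) run 5′ to 3′ along each gene from 250 bases before to 10 bases after the start, with any CACGTG in capitals. Mycl lies at chr4:122995681-122995940 on the plus strand, Max at chr12:76962239-76962498 on the minus strand, Mxd1 at chr6:86669150-86669409 on the minus strand and Mnt at chr11:74830674-74830933 on the plus strand.
Mycl: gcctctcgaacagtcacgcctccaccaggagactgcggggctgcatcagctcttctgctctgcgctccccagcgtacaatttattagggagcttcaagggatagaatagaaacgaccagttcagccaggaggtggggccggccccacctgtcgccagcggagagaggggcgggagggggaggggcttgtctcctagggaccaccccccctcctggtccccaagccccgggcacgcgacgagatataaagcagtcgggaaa
Max: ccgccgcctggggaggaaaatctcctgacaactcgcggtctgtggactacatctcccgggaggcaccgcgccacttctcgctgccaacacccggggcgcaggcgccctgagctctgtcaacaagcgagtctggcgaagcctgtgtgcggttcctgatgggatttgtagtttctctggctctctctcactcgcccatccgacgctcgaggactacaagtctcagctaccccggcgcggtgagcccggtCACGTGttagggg
Mxd1: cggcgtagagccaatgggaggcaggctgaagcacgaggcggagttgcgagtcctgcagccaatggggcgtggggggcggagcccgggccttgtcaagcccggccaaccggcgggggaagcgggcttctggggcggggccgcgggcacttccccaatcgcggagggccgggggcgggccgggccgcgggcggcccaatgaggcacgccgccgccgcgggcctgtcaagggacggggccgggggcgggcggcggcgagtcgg
Mnt: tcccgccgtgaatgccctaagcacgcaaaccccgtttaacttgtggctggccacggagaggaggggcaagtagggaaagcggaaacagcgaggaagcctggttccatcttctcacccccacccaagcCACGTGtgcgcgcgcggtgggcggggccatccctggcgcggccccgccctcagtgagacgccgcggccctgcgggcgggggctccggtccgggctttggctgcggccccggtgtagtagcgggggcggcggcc
In Max the first letter of the match lies 3 bases before the start, and in Mnt 123 bases before it. Mycl and Mxd1 hold no such match in these windows, which says only that these letters are not there. In the mm10 coordinates of the tables the transcripts counted were NM_010849 for Myc (chr15:61985341-61990361), NM_008506 for Mycl (chr4:122995931-123002480), NM_001361664 for Max (chr12:76937269-76962248), NM_010751 for Mxd1 (chr6:86647045-86669159) and NM_010813 for Mnt (chr11:74830924-74845725). The others were NM_001008542 for Mxi1 (chr19:53310506-53373293), NM_013720 for Mga (chr2:119897228-119969581), NM_011550 for Mlx (chr11:101087290-101092207) and NM_133917 for Mlxip (chr5:123394798-123457931). Exons of Mlx, Mlxip and Mxi1 overlap those of Psmc3ip, Gm15747 and Gm10197 on the opposite strand by 385, 267 and 194 bases. Counting was strand-specific by the study's methods, but the headers name no strand option.

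In resting WT macrophages Max and Mnt had the most RNA per kb among the members, and Mycl next to none. On the scale of CPM per kb of the counted transcript, which allows genes to be set side by side, WT Veh cells had Max at 45.2 ± 0.0142 (SD, n = 2), Mnt at 26.8 ± 2.19, Mxi1 at 17.7 ± 0.805 and Mlx at 16.6 ± 0.455. Mlxip followed at 13.1 ± 0.869 and Mga at 6.29 ± 0.171, then Mxd1 at 5.23 ± 0.124 and Myc at 3.25 ± 0.397. Mxi1 and Mlx, neighbours in that order, differed by less than the sum of their SDs. In the vehicle libraries of the RGFP966 and Pgc1b tables Myc stood higher, at 6.63 and 13.8 CPM per kb, above the means of Mga (6.36 and 7.05) and Mxd1 (4.39 and 4.19). Mycl was close to absent, with 2 and 2 counts in the WT Veh libraries and no more than 7 counts in any library given Veh, IFNb or IL4 in this table. After KLA the order became Max 187, Mxd1 65, Mlx 25.6, Mlxip 16.5, Mycl 7.16, Mnt 7.09, Myc 6.28, Mga 5.15 and Mxi1 1.60 CPM per kb. Mycl and Mnt did not differ beyond their spread there. With RANKL, Myc led at 52.5 CPM per kb, above Max at 38.3.

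**Figure D1:**
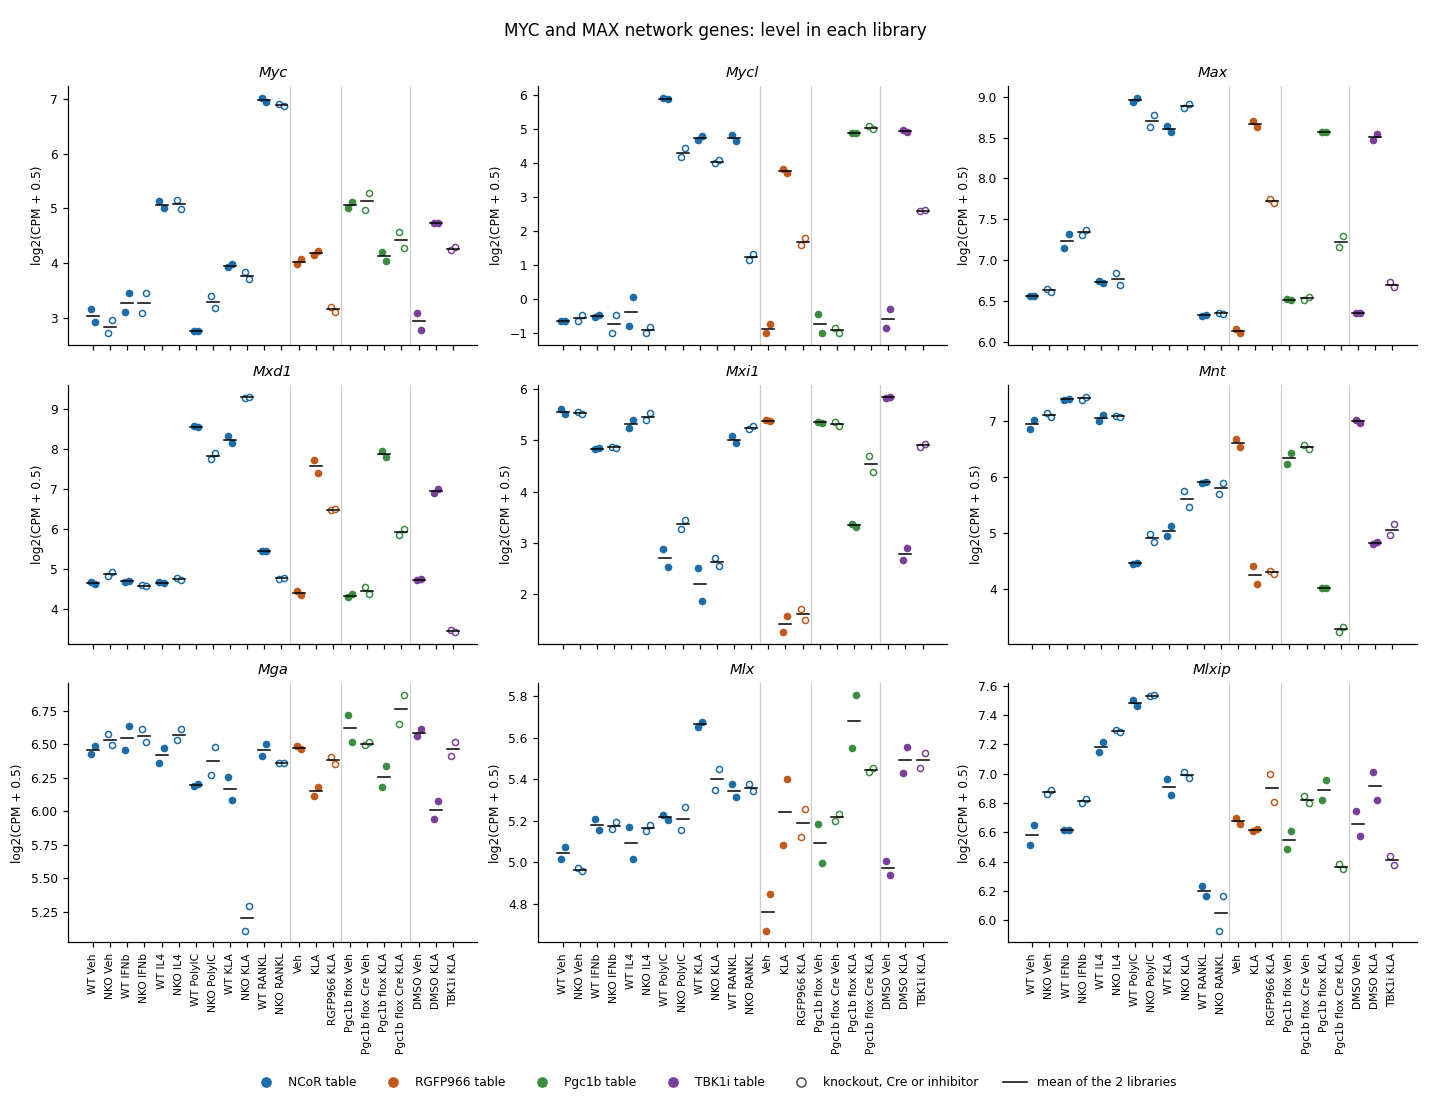
Level of each of the 9 members in the 22 groups, as log2(CPM + 0.5) on axes that differ between panels; each point is a library, the black line the mean of 2, the color the count table, and open points mark knockout, Cre or inhibitor groups. Myc is highest with RANKL (129 and 122 CPM in WT), while Mycl, Max and Mxd1 are high with KLA and PolyIC where Mxi1 and Mnt are low.

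KLA, which mimics bacterial lipopolysaccharide, raised Mycl, Max and Mxd1 and lowered Mxi1 and Mnt in all 4 tables, each of which was scaled and fitted on its own. A call here is an adjusted p below 0.05 with a fold above 1.5 in edgeR's quasi-likelihood test. Of the 9 members 5 rose and 2 fell in WT cells, in a comparison where 57.8% of the genes tested were called, so that being called at all is common and the members are described by size. Max, the shared partner, stood at 94 and 94.1 CPM with Veh and 398 and 380.1 with KLA, 4.14-fold higher (log2 fold change 2.05 ± 0.06, SE). Mxd1, the repressor of differentiating cells, went from 24.8 and 23.9 to 320.3 and 285 CPM, 12.4-fold (3.63 ± 0.07 on the log2 scale). Both genes had replicates far apart from those of vehicle, with no overlap. Mycl, with 2 and 2 counts at rest, reached 153 and 164 counts or 25.1 and 27.3 CPM. Against a fixed floor of 3 counts per vehicle library that is at least 127-fold higher. The floor is a convention, used for every Mycl fold given as at least, and is not a confidence limit.

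The 2 members that fell are repressors of the same network. Mxi1 dropped from 48 and 45 to 5.24 and 3.17 CPM, 11-fold lower (log2 -3.46 ± 0.16). Mnt, the most widely expressed MAX repressor, dropped from 116 and 130.0 to 30.3 and 34.7 CPM, 3.79-fold lower (-1.92 ± 0.09). Both fell without overlap between the groups. Mlx rose 1.54-fold (31.9 and 33.2 to 49.8 and 50.7 CPM), and Myc 1.93-fold. The largest adjusted p among the 7 calls was 4.3e-07 (edgeR). Mga (log2 -0.29) and Mlxip (0.33) did not reach the fold threshold. In these bulk libraries fewer cells of a type and less RNA per cell cannot be told apart. The 8 dividing-cell markers summed to 169 to 186 CPM in WT Veh and 147 to 160.3 in WT KLA libraries, with 7 called lower. The 4 fibroblast markers summed to 49.9 to 52.2 CPM in WT Veh and 0.819 to 1.33 in WT KLA libraries (3 called lower), and to 29.8 to 31.6 and 31.5 to 31.8 CPM in DMSO Veh and DMSO KLA libraries. Their part was not tested. The WT KLA and WT Veh libraries also differ in date.

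The other 3 tables, in which vehicle and KLA libraries share a date, gave the same directions for these 5 genes. Members were called 3 higher and 2 lower with KLA in the wild type cells of the RGFP966 table (background 60.0%), 4 and 3 in Pgc1b flox cells (background 48.5%), and 4 and 2 in DMSO-treated cells (background 58.9%). The log2 fold change of Max was 2.55, 2.06 and 2.16 in these tables. Mxd1 gave 3.22, 3.59 and 2.25, the lowest being in DMSO-treated cells, where it rose from 25.7 and 26 to 119.8 and 127 CPM. For Mxi1 they were -4.21, -2.05 and -3.14, and for Mnt -2.38, -2.35 and -2.19. Mycl was at least 89.2-fold higher in the RGFP966 table and at least 132-fold higher in Pgc1b flox cells. In DMSO-treated cells it had 1 and 5 counts with vehicle and 284 and 257 with KLA. Mlx was called higher in 2 of the 4 tables; its call in Pgc1b flox cells (0.60 ± 0.12) was lost without Pgc1b flox Veh replicate 2 (0.50) or Pgc1b flox KLA replicate 2 (0.46). Mga and Mlxip were called in none of the 4 by edgeR, with log2 fold changes of -0.58 to -0.29 for Mga and -0.06 to 0.34 for Mlxip, although DESeq2 called Mga in DMSO-treated cells (-0.61).

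**Figure D2:**
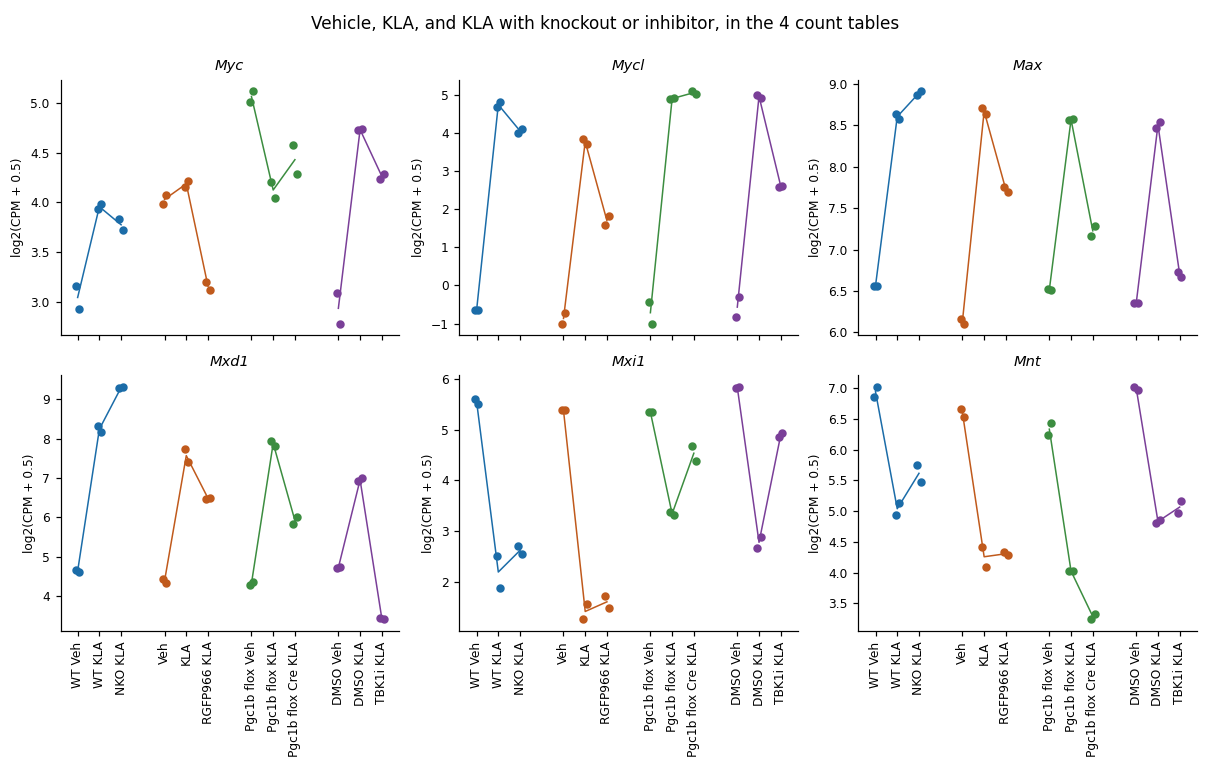
Level, as log2(CPM + 0.5) on axes that differ between panels, of Myc, Mycl, Max, Mxd1, Mxi1 and Mnt in vehicle, KLA, and KLA with a knockout or inhibitor, in the 4 tables; points are libraries and lines join group means of 2. Mxd1 climbs with KLA in each table and is 10.4 and 10.2 CPM with the TBK1 inhibitor and 620.5 and 638 in NKO cells.

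Myc itself had no common response to KLA. It rose in WT cells (8.46 and 7.12 to 14.7 and 15.3 CPM, log2 0.95 ± 0.16) and in DMSO-treated cells (8.02 and 6.39 to 26 and 26.2 CPM, 1.85 ± 0.14). It differed by 0.16 ± 0.12 in the RGFP966 table (15.4 and 16.3 to 17.3 and 18.1 CPM, 95% interval -0.08 to 0.40), and it fell in Pgc1b flox cells (31.7 and 34.2 to 18 and 16 CPM, -0.95 ± 0.15). The vehicle libraries of the tables spanned 7.20 to 33 CPM and their KLA libraries 15 to 26.1 (group means), so the tables differed more at rest than after KLA. Dividing-cell markers fell with KLA in the Pgc1b flox libraries, where they summed to 601 to 671 CPM with Veh and 127 to 162 with KLA (8 of 8 called lower), with 7 of 8 called lower in each of the other 3 tables, and their part was not tested. The levels of Myc were set in separate tables, and a difference between tables was not tested.

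PolyIC, an RNA mimic that signals through TLR3, raised Mycl, Max, Mxd1 and Mlxip and lowered Mxi1 and Mnt. Members were called 4 higher and 2 lower, against 47.2% of all genes. Mycl reached its highest level among the 22 groups, which were scaled table by table, 60.2 and 58.5 CPM from 506 and 487 counts, at least 289-fold above WT Veh. Max rose to 489 and 506 CPM (5.29-fold, log2 2.40 ± 0.06) and Mxd1 to 379.6 and 374 CPM (15.5-fold, 3.95 ± 0.07). Mlxip, the MondoA gene, rose to 181 and 176 from 90.8 and 99.8 CPM (0.90 ± 0.06). Mxi1 fell to 6.90 and 5.29 CPM (-2.93 ± 0.13) and Mnt to 21.4 and 21.6 CPM (-2.51 ± 0.09). The largest adjusted p of these 6 was 1.2e-20 (edgeR). Dividing-cell markers were 127 to 134 summed CPM (7 of 8 called lower), and their part was not tested. Myc stood at 6.31 and 6.25 CPM, a level that overlaps those of NKO Veh at 6.10 and 7.30, and did not differ by call from WT Veh (log2 -0.31 ± 0.18, adjusted p = 0.127 in edgeR, not called). Mycl therefore made up 86 ± 0.314% (SD, n = 2) of the summed Myc, Mycl and Mycn CPM per kb with PolyIC, 53.2 ± 0.835% with KLA and 1.15 ± 0.134% at rest.

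Interferon beta gave smaller changes in 2 members, Max higher and Mxi1 lower, with 6.47% of genes called. Max rose from 94 and 94.1 to 141 and 159 CPM (1.59-fold, log2 0.67 ± 0.06), a call lost without WT IFNb replicate 2 (0.58). Mxi1 fell to 27.7 and 28.3 CPM (-0.73 ± 0.09). Their adjusted p values were at most 6.5e-10 (edgeR). Mycl had 3 and 3 counts, as low as at rest, and Mxd1 (24.9 and 25.3 CPM, 0.04 ± 0.08) was at the vehicle level within its 95% interval of -0.12 to 0.21. Mnt differed by 0.44 ± 0.06, short of the fold threshold.

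RANKL set Myc rather than Max and Mxd1 apart. Myc rose from 8.46 and 7.12 to 129 and 122 CPM, 16.1-fold (log2 4.01 ± 0.10), the highest level among the 22 groups. Mycl came up to 28.2 and 24.8 CPM (431 and 355 counts), at least 129-fold, close to its level with KLA. Mxd1 rose to 42.8 and 42.9 CPM (0.82 ± 0.08) and Mnt fell to 59.3 and 59.7 CPM (-1.05 ± 0.07). So 3 members were called higher and 1 lower (largest adjusted p 3.0e-14, edgeR), against 43.8% of all genes. Max did not rise (79.3 and 80.1 CPM, -0.24 ± 0.06), and Mxi1 differed by -0.55 ± 0.09, not called. Ligand, time (12 h against 6 h), date and the culture named in the columns (osteoclast against BMDM) cannot be told apart in this comparison. Markers of other cells were also higher in WT RANKL libraries than in WT Veh: neutrophil (6 of 6 tested), dendritic (4 of 5), lymphocyte (3 of 3), fibroblast (4 of 4) and dividing-cell (8 of 8, 979 to 1037 summed CPM against 169 to 186). Osteoclast markers summed to 181 to 188 CPM against 132 to 147, with 3 of 5 tested called higher and 0 lower. Of the 7 macrophage markers, 1 was called higher and 5 lower. Their sum was nonetheless 23348.5 to 23675.2 CPM in WT RANKL libraries and 17119.9 to 17615.9 in WT Veh. The part of all these markers in the Myc and Mycl levels was not tested.

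Interleukin 4, the ligand of alternative activation, raised Myc and Mlxip and left the rest uncalled (background 13.1%). Myc went to 34.5 and 31.5 CPM, 4.23-fold (log2 2.08 ± 0.12), in libraries of the same date as vehicle. Mlxip reached 141 and 148 CPM (0.60 ± 0.06), at the edge of the threshold and lost without WT Veh replicate 1 (0.54) or WT IL4 replicate 2 (0.57). Both had an adjusted p of at most 4.0e-13 (edgeR). Mycl counts were 1 and 7. Myc thus rose with RANKL, IL4 and KLA in WT cells, whereas Mycl rose with RANKL, KLA and PolyIC.

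The repressor side of the network changed its make-up with KLA and PolyIC. Among Mxd1, Mxi1, Mxd3 and Mxd4, the MXD genes, Mxd1 gave 7.53 ± 0.184% of the summed CPM per kb in WT Veh cells, Mxi1 25.4% and Mxd4 65.4%. With KLA Mxd1 gave 90.5 ± 0.200% and with PolyIC 93.2 ± 1.03%. The sum itself was 69.6 ± 3.35 CPM per kb at rest and 71.8 ± 5.83 with KLA, a difference within their spread. It was 86.9 ± 1.95 with PolyIC, above rest, and with KLA it went from 63.8 ± 3.19 to 45.7 ± 6.19 in the RGFP966 table, from 79.6 ± 1.93 to 34.3 ± 0.161 in DMSO-treated cells and from 50.8 ± 6.91 to 60.0 ± 2.32 in Pgc1b flox cells, so the course of the total was not shared. Mxd4 fell alongside Mxi1 (log2 -3.78 ± 0.15 with KLA). With RANKL the 3 genes Mxd1, Mxi1 and Mxd4 had 25.2%, 33% and 31.8%. The partners of MAX (Myc, Mycl, Mycn, the MXD genes, Mnt and Mga) summed to 2.35 ± 0.0316 times the Max level per kb at rest, 0.522 ± 0.00959 with KLA and 0.484 ± 0.0213 with PolyIC. These are ratios of RNA and carry no protein measurement.

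**Figure D3:**
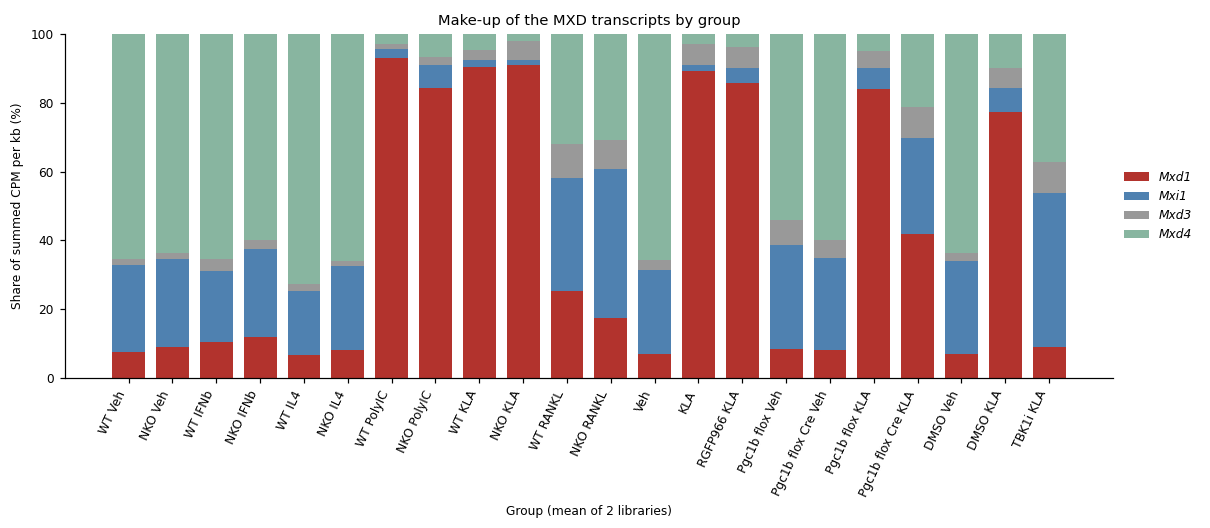
Share of the summed CPM per kb of the 4 MXD genes held by Mxd1, Mxi1, Mxd3 and Mxd4 in each of the 22 groups, as stacked bars from 0 to 100% of group means. Mxd1 holds 90.5% in WT KLA, 41.8% in Pgc1b flox Cre KLA and 8.90% in TBK1i KLA.

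Loss of NCoR, a corepressor that carries HDAC3, left the members at rest and with IFNb or IL4 without a call. The background there was 6.21%, 3.80% and 4.24% of genes. Before the fold threshold, Mxd1 and Mlxip in NKO Veh (log2 0.24 and 0.30) and Mlxip in NKO IFNb (0.20) had adjusted p values of 0.0306, 9.6e-05 and 0.0179 (edgeR). At an unadjusted p under 0.05 there were 3, 1 and 2 members, and DESeq2 called 0 in each. Mycl counts were 2 and 4, 0 and 3 and 0 and 1 in these groups. The WT IL4 libraries had 1 and 7, and without WT IL4 replicate 1 Mycl would be called lower in NKO IL4. Osteoclast markers were 806 to 818 summed CPM in NKO Veh and 132 to 147 in WT Veh libraries.

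With PolyIC, the NKO cells had less Mycl and Mxd1 and more Mxi1 than WT cells of the same date. Members were called 1 higher and 2 lower, against 5.93% of genes. Mycl stood at 60.2 and 58.5 CPM in WT and 17.7 and 21.3 in NKO, 3.04-fold lower (log2 -1.61 ± 0.13). Mxd1 was 379.6 and 374 CPM in WT and 214 and 238 in NKO (-0.74 ± 0.05), without overlap. Mxi1 was 9.19 and 10.5 CPM in NKO (0.69 ± 0.18), a call lost without WT PolyIC replicate 2 (adjusted p = 0.122, edgeR) or NKO PolyIC replicate 2 (adjusted p = 0.0624, edgeR). The largest adjusted p of the 3 calls was 0.00324 (edgeR). Myc was 10.1 and 8.61 CPM in NKO (0.58 ± 0.19, adjusted p = 0.0204 in edgeR), under the fold threshold. The change of the knockout effect from Veh to PolyIC was called for Mxd1 (-0.97 ± 0.10), Mxi1 (0.71 ± 0.20) and Myc (0.78 ± 0.24), 3 of 9 members against 3.24% of genes, with the Myc call at adjusted p = 0.0271 (edgeR). That of Myc did not hold in a fit of the compared groups only (adjusted p = 0.0698, edgeR), nor that of Mxi1 without WT PolyIC replicate 2 (adjusted p = 0.182, edgeR). Osteoclast markers summed to 1926 to 1951 CPM in NKO PolyIC and 229 to 242 in WT PolyIC libraries (4 of 5 tested called higher), and fibroblast markers to 34.9 to 35.5 and 64.8 to 73.7 (2 of 4 called lower). Their part was not tested. With IFNb and IL4 no member had a called interaction in edgeR or DESeq2 (background 0.604% and 0.604%, with 1 and 2 members at an unadjusted p under 0.05).

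With KLA, the NKO libraries had more Mxd1 and Mnt and less Mycl and Mga than WT (2 higher, 2 lower, background 40.0%). Mxd1 was 320.3 and 285 CPM in WT and 620.5 and 638 in NKO, 2.08-fold higher (log2 1.06 ± 0.05), its highest level in the series and opposite in sign to the PolyIC difference. Mga fell from 75.8 and 67.3 to 34 and 38.7 CPM (-0.98 ± 0.09), the only call of Mga among the 18 comparisons of groups. Mycl was 15.5 and 16.7 CPM (-0.71 ± 0.15). Mnt was 53.6 and 44 CPM (0.59 ± 0.10), a call lost with DESeq2 (0.57) and without WT KLA replicate 1 (0.50) or NKO KLA replicate 1 (0.44). The largest adjusted p was 3.9e-05 (edgeR). Interaction with KLA was called for Mxd1 (0.82 ± 0.10) and Mga (-1.06 ± 0.11), against 36.9% of genes.

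Since date and sex move with genotype here, the NKO KLA libraries were also set against each KLA control of the 4 tables in a joint fit. All 4 contrasts use the same NKO KLA libraries, and no control shares their date. Genotype and date therefore cannot be told apart in any of them, and the contrasts are not independent. The background was 43.3% against WT KLA, 46.9% against KLA, 37.3% against Pgc1b flox KLA and 41.7% against DMSO KLA. In that order, Mxd1 was higher by 1.00, 1.41, 1.37 and 2.28 (log2) and Mga was -1.04, -1.28, -1.12 and -0.89, called 4 of 4 times each. Mycl was -0.76, -0.03, -0.92 and -1.0, with no call against the second of these controls. Mnt was 0.54, 1.07, 1.58 and 0.73, called higher in all but the first. Myc was -0.24, -0.74, -0.42 and -1.05, called lower against KLA and DMSO KLA. Mxi1 had no common sign (0.38, 1.04, -0.82 and -0.24), called higher against KLA and lower against Pgc1b flox KLA. No call was made for Max, Mlx or Mlxip. The comparison with Pgc1b flox KLA is between libraries that both carry Y-linked counts. Dendritic markers summed to 46.8 to 53 CPM in NKO KLA and 6.00 to 6.06 in WT KLA (4 of 5 tested called higher), and fibroblast markers to 7.81 to 9.37 and 0.819 to 1.33 (3 of 4 called higher). Macrophage markers summed to 12458.7 to 12707.6 and 19230.6 to 19412.2 (2 called higher and 2 lower of 7). Osteoclast markers summed to 322 to 323 and 144 to 150 (3 called higher and 1 lower of 5 tested). Their part was not tested.

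With RANKL, both genotypes share a date, and Mycl was 28.2 and 24.8 CPM in WT and 1.72 and 2.02 in NKO (431 and 355 against 19 and 20 counts). That is a log2 difference of -3.82, without overlap, while Myc stayed at 120.0 and 116 CPM (-0.09). Mxd1 was 26.1 and 26.8 CPM in NKO (-0.70), near its resting level. In this contrast, which informed the choice of members, 13.2% of genes were called for the knockout and 14.2% for its interaction with RANKL, and nothing is read from the members' values against it. Dividing-cell markers were 299 to 396 summed CPM in NKO and 979 to 1037 in WT, 8 of 8 called lower. Neutrophil markers were 935 to 1009.9 and 637 to 662 (2 of 6 called higher). The part of these markers was not tested.

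RGFP966, which blocks the deacetylase held by NCoR, lowered Myc, Mycl, Max and Mxd1 during KLA, 4 members lower and none higher against 25.4% of genes. Mycl fell from 13.8 and 12.5 to 2.51 and 3.00 CPM, 4.76-fold (log2 -2.25 ± 0.22). Max went from 417 and 397 to 215 and 207 CPM (-0.95 ± 0.06). Mxd1 went from 212 and 169 to 87.8 and 90.1 CPM (-1.10 ± 0.07). Each of these 3 stayed above the vehicle libraries. Myc fell from 17.3 and 18.1 to 8.70 and 8.18 CPM (-1.07 ± 0.14), below the vehicle libraries of the table at 15.4 and 16.3. The largest adjusted p was 8.8e-10 (edgeR), and the groups did not overlap for these 4. RGFP966 KLA replicate 2 bears a date 14 days after the other libraries, and leaving it out kept the 4 calls. Mxi1 (0.21 ± 0.28) and Mnt (0.05 ± 0.11), which KLA lowers, were not called, with 95% intervals of -0.33 to 0.75 and -0.17 to 0.27. Dividing-cell markers were 139 to 145 summed CPM with KLA and 54.8 to 63.7 with RGFP966 added (5 of 8 called lower), and osteoclast markers 199.9 to 205 and 407 to 438 (3 of 5 tested called higher). Their part was not tested.

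GSK8612, the inhibitor of TBK1 (a kinase between TLR signals and interferon production), lowered Mycl, Max and Mxd1 during KLA and raised Mxi1, 4 members against 33.3% of genes. Mxd1 dropped from 119.8 and 127 to 10.4 and 10.2 CPM, 12-fold (log2 -3.58 ± 0.10), to below the 25.7 and 26 CPM of unstimulated cells. Max went from 354 and 372 to 106 and 101 CPM (-1.81 ± 0.05) and Mycl from 31.4 and 29.7 to 5.51 and 5.64 (-2.45 ± 0.17). Mxi1 rose from 5.86 and 6.94 to 28.6 and 30.0 CPM, 4.57-fold (2.19 ± 0.15), toward 56 and 57 at rest. Mnt, the other member lowered by KLA, stayed low at 30.9 and 35.3 CPM (0.24 ± 0.10). The 4 calls had an adjusted p of at most 1.2e-44 (edgeR). Myc was 18.3 and 19.1 CPM against 26 and 26.2 (-0.48 ± 0.13), under the fold threshold. Mxd1 held 77.4 ± 2.82% of the MXD sum with KLA and 8.90 ± 0.365% with the inhibitor added. Dividing-cell markers were 148 to 166 summed CPM with KLA and 454 to 458 with the inhibitor, with 2 of 8 called higher, at a median log2 of 0.22. Fibroblast markers were 31.5 to 31.8 and 15.8 to 18 (3 of 4 called lower). Osteoclast markers were 504 to 512 and 824 to 854. Their part was not tested.

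In the libraries labelled Pgc1b flox Cre, members did not move at rest (0 of 9 called by edgeR, background 0.303%, 0 by DESeq2, 2 at an unadjusted p under 0.05, which were Mnt 0.20 ± 0.09 and Mlxip 0.27 ± 0.08). With KLA, Max, Mxd1 and Mnt were called lower and Mxi1 higher than in Pgc1b flox, against 26.1% of genes. Max was 379 and 381 CPM without Cre and 143 and 156 with it, 2.54-fold lower (log2 -1.35 ± 0.07). Mxd1 was 246 and 224 CPM without Cre and 56.8 and 63.5 with it, 3.91-fold lower (-1.97 ± 0.09). Mxi1 was 9.89 and 9.42 CPM without Cre and 25.3 and 20.4 with it (1.24 ± 0.16). In these genes the KLA response was smaller with Cre. Mnt went the other way, lower still with Cre (15.8 and 15.7 CPM without, 8.96 and 9.54 with, -0.77 ± 0.15). Mycl, at 29.1 and 29.4 CPM without Cre and 33.6 and 31.8 with it, differed by 0.16 ± 0.17 (95% interval -0.18 to 0.50). The adjusted p of the 4 calls was at most 8.7e-05 (edgeR).

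The Cre effect itself differed between KLA and vehicle for 6 members, against 22.8% of genes: Max (-1.37 ± 0.10), Mxd1 (-2.10 ± 0.14), Mxi1 (1.28 ± 0.20), Mnt (-0.97 ± 0.18), Mga (0.62 ± 0.13) and Mlxip (-0.80 ± 0.12). Leaving out Pgc1b flox Veh replicate 1, Pgc1b flox KLA replicate 1 or Pgc1b flox Cre KLA replicate 2 ended the call of Mga (0.53, 0.57 and 0.52). Dividing-cell markers were 454 to 491 summed CPM with Cre and 127 to 162 without (8 of 8 called higher), and 4 of 7 macrophage markers were called lower with Cre. Their part was not tested. Ppargc1b counts did not fall over the counted exons, so these differences are given for the libraries as labelled. The study also has an immunoblot of PGC1β protein in BMDMs of both genotypes, which these RNA counts do not address.

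Mga, the scaffold of a Polycomb-type MAX complex, was called in 1 of the 17 comparisons other than the knockout effect with RANKL, and Mlx and Mlxip in 2 each. Mxd1 was called in 11, Mycl in 10, Max and Mxi1 in 9 each, Mnt in 8 and Myc in 6. Comparisons within a table share libraries, so these counts are not independent. The share of all genes called ran from 0.303% (Pgc1b flox Cre against Pgc1b flox with Veh) to 60.0% (KLA in the RGFP966 table). Genes of any kind are therefore called often in several comparisons, and the totals are not read as particular to the members. Mlx ranged from 26.7 CPM in Veh of the RGFP966 table to 50.9 in Pgc1b flox KLA (group means).

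**Figure D4:**
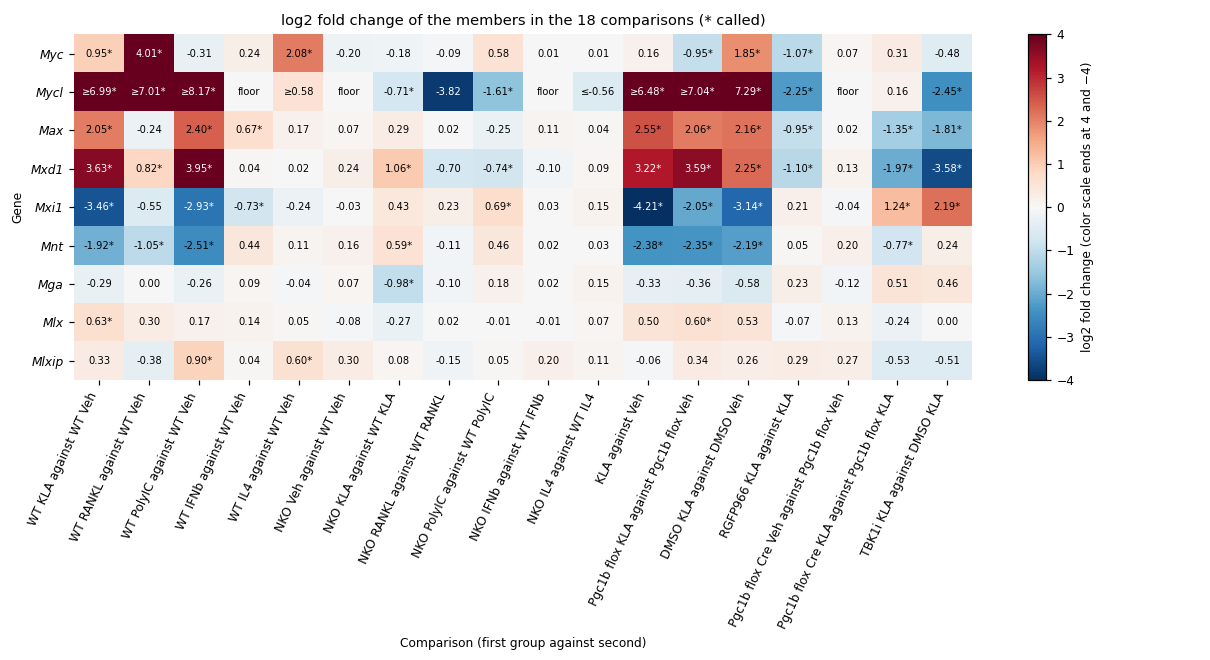
Log2 fold change of the 9 members in 18 comparisons of groups, as a heatmap whose color ends at 4 and -4; a star marks a call, ≥ and ≤ mark bounds against a floor of 3 counts, floor marks cells at or near that floor in both groups, and the NKO RANKL column carries no test. Mxd1 spans -3.58 with the TBK1 inhibitor to 3.95 with PolyIC, and the rows of Mga, Mlx and Mlxip stay within 1 log2 unit.

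Known targets and cofactors of the network were read beside the members from lists chosen with earlier results of these data known. Of 27 MYC target genes, 24 were called higher and 0 lower with RANKL, where Myc was highest and 43.8% of all genes were called (median log2 1.59 against 0.02 for all genes tested). Srm, which makes spermidine (2.75 ± 0.11), and Nme1, a nucleoside kinase (2.64 ± 0.10), were among them. The RANKL libraries also differ from vehicle in time, date, culture name and dividing-cell markers. The part of these in the target levels was not tested. With IL4, where Myc rose too, 4 were higher and 0 lower (median 0.18 against -0.01), a share near the background of 13.1%. With KLA in WT cells the split was 10 and 6 (median 0.43 against -0.14, background 57.8%) and with PolyIC 5 and 7 (median -0.21 against -0.07, background 47.2%). In WT cells with KLA, Ccnd2, a G1 cyclin, rose by 6.02 ± 0.08 while Tfrc, the transferrin receptor, changed by -3.12 ± 0.08. In the RGFP966 table, where Myc was not called, KLA gave 11 higher and 6 lower targets (background 60.0%). In DMSO-treated cells, where Myc rose, it gave 15 and 4 (background 58.9%). In Pgc1b flox cells, where Myc fell, it gave 7 and 5 (background 48.5%). During KLA, 11 targets were higher and 1 lower with the TBK1 inhibitor (background 33.3%), 10 and 1 with Pgc1b flox Cre (background 26.1%), 2 and 2 with RGFP966 (background 25.4%), and 8 and 7 in NKO cells (background 40.0%).

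The MLXIP and MLX targets Txnip and Arrdc4 went apart. Txnip, an inhibitor of thioredoxin, changed by -1.89 ± 0.06 and Arrdc4, a related arrestin-domain gene, by 1.08 ± 0.11 with KLA, and by -0.73 ± 0.05 and 2.50 ± 0.09 with PolyIC (log2), the ligand with the highest Mlxip in WT cells. Of 10 genes of the MGA complex, 2 were higher and 5 lower with KLA in WT cells, where 57.8% of all genes were called, and 1 and 5 in NKO against WT with KLA, where Mga fell and 40.0% were called. Rnf2, its ubiquitin ligase, changed by -1.78 ± 0.10 in that last comparison. Of 10 cofactor genes of MYC and MXD, 4 were higher and 1 lower with KLA. Among them were Hdac1 (2.30 ± 0.12), Ep400 (1.99 ± 0.06) and Sin3a (-0.74 ± 0.09). Hdac1 and Sin3a are parts of the complex through which MXD proteins repress. Of 7 genes of MYC turnover, 1 was higher and 2 lower with KLA, with Pim1, a kinase that stabilizes MYC, at 3.24 ± 0.07 and Skp2, a ubiquitin ligase of MYC, at -1.08 ± 0.20. The shares called of the cofactor and turnover genes were below that of all genes with KLA.

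Across the 12 groups of the first table, the log2(group mean CPM + 0.5) of members was compared by Pearson's r as a description, with no test. Max and Mxd1 moved together (r = 0.92), as did Mycl and Mxd1 (0.85) and Mxi1 and Mnt (0.81). Mxi1 ran against Mxd1 (-0.96) and Max (-0.95), and Mnt against Mycl (-0.94). Myc and Mycl had no common course (0.07). Mycl had at most 7 counts in any library given Veh, IFNb or IL4. Its r values, also in the search below, therefore lean on the added 0.5. The groups include NKO RANKL, whose Mycl level was known when the members were chosen. The search over 11010 genes used the group mean of log2(CPM + 0.5). Among them the closest to Myc over the 12 groups were Spint1, Idh3a and Imp4 (r = 0.969, 0.966 and 0.964). Closest to Mycl were Jdp2, Hat1 and Brip1os (0.986, 0.976 and 0.965), and closest to Mxd1 were Lck, Cxcl11 and Junb (0.995, 0.992 and 0.990). The groups share dates and ligands, so these values carry no p.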

How the data were processed

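RNA-seq of BMDMs was deposited as 4 tables of raw counts per transcript; per the file headers the authors counted exon reads with HOMER's analyzeRepeats, keeping 1 transcript per gene, after STAR alignment to mm10 (versions not given in the sources used here; the submitters' processing notes also name DESeq2). Columns were matched to samples by name. Genes with low counts were removed with filterByExpr, leaving 13407, 12196, 12205 and 12332 genes, and TMM-scaled counts were fitted with edgeR 4.0.16 (glmQLFit, robust, glmQLFTest) in R 4.3.3, one fit per table on all its libraries, with Benjamini-Hochberg adjustment over all genes tested. A call was adjusted p below 0.05 and fold above 1.5. CPM used TMM library sizes; CPM per kb used the listed transcript length. A fold against a group with at most 3 counts per library was computed against 3 counts as a fixed floor, which is not a confidence limit. Intervals cover counting error or spread between 2 libraries only. NKO_KLA was also compared in a joint fit of the KLA controls (10864 genes). Alternatives were DESeq2 1.42.0, its size factors, no count filter, no fold threshold, the compared groups alone, a replicate block and each library left out. The fitting script was tested on simulated data. Figures were drawn with matplotlib 3.10.9. Members and gene lists were chosen with earlier results of these data known. All 9 members were fitted in every comparison, and the text names those called and some of the rest. Other genes were drawn from the lists, from at most 2 called genes with the highest and 2 with the lowest change. These averaged at least 5 CPM in a compared group, and not all of them are named. Txnip and Arrdc4 were taken whether called or not. Promoter windows came from RefSeq (GRCm38.p6) and were searched for CACGTG. Same-numbered replicates did not deviate together (correlations from -0.065 to 0.062 over 18 comparisons), so no pairing was used. Columns of other series: 0.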

Additional observations from a re-analysis of the deposited data

Results flagged for a closer look

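The effects that differed between conditions by an interaction term were as follows. With KLA against vehicle, the NCoR knockout effect differed for Mxd1 by 0.82 ± 0.10 (log2, SE) and for Mga by -1.06 ± 0.11, in libraries whose date and sex differ with genotype. With PolyIC it differed for Myc by 0.78, for Mxd1 by -0.97 and for Mxi1 by 0.71, all from libraries of 1 date. The RANKL contrast informed the choice of members and is described with no test. There the difference of the knockout effects was -4.27 for Mycl, a fitted value that is no bound because its vehicle libraries had 2 and 2 counts in WT and 2 and 4 in NKO cells, and -0.93 for Mxd1. In the libraries labelled Pgc1b flox Cre, the Cre effect with KLA differed from that at rest for Max by -1.37, Mxd1 by -2.10, Mxi1 by 1.28, Mnt by -0.97, Mga by 0.62 and Mlxip by -0.80. Groups of 2 libraries are too small for a check of single libraries standing apart.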

How the results depend on the processing

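Calls were counted as 1 member in 1 comparison, so a member can count more than once. The shares of all genes called are given with each comparison above. Over the alternatives run, the number of calls was 21 for the WT ligand responses, 9 for the NCoR knockout effect, 7 for its interaction with a ligand, 18 for KLA in the other 3 tables, 4 each for RGFP966, Cre and TBK1i, and 6 for Cre by KLA. The counts for the knockout and its interaction, here and below, include the RANKL contrast, which is described without a test. That contrast gave 2 of the 9 and 2 of the 7 calls. It informed the choice of members, and nothing is read from its calls. Without the fold threshold it was 18 for the knockout effect, 14 for the interaction and 8 for TBK1i. Leaving out each library in turn gave 20 to 22, 8 to 10, 5 to 8, 17 to 19, 4 (RGFP966), 4 to 5 (Cre), 4 to 5 (TBK1i) and 5 to 6 calls. Under the other alternatives each count stayed within 1.5 times these. In the fits without a library a group left with 1 library is assumed to vary like the others, and of the single-gene values 20 lost a call, 14 gained one, 0 reversed and 1046 did neither. Mxi1 in NKO KLA reversed to -0.82 with Pgc1b flox KLA as the control. The replicate block changed no call of a member. DESeq2's size factors moved 32 of 198 member levels by more than 1 SD, by at most 0.05 on the log2 scale. Mycl had at most 7 counts in any library given Veh, IFNb or IL4, so depth limits its level there.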
